A study of Mus musculus with 7 samples.

Results

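The regions described here are divergent promoter pairs of the mouse genome, places where the transcription start sites (TSSs) of a minus-strand gene and a plus-strand gene lie back to back. A pair was taken wherever the plus-strand TSS lay 0 to 1000 bp above the minus-strand TSS on the same chromosome, both rows carried a RefSeq identifier and the gene symbols differed. The rule used position and strand only, so no ChIP-seq value entered the choice. It found 811 row pairs made of 1446 rows, which are 6.369% of the 22704 RefSeq rows and belong to the 36733 TSS rows of the series. Taking the closest starts of each gene pair left 647 gene pairs with 1287 genes, of which 6 took part in over 1 pair and 1 had no symbol in the files. The remaining 21258 RefSeq rows served as the comparison and are called other RefSeq rows.

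Binding of Tip60, Hdac6 and p400 to chromatin of E14 mouse embryonic stem cells (ESCs) was measured by ChIP-seq in 7 samples, 1 per condition. Flag ChIP was made from Tip60-H3F ESCs upon GFP knockdown (KD) and upon Hdac6 KD, and from Hdac6-H3F ESCs upon GFP KD and upon Tip60 KD, where H3F is a histidine and Flag tag placed at the endogenous gene. Flag ChIP from wild-type (untagged) ESCs gave the background of the antibody, and an antibody to endogenous p400 was used in ESCs without a tag label upon GFP KD and Hdac6 KD. Knockdown was by lentiviral infection 72 h before harvest, and GFP KD is the control of each knockdown. The sample titled as the Hdac6 ChIP upon Tip60 KD has a genotype label that names an Hdac6 KD. It is called here by its title, the conflict could not be settled from the values, and every comparison of it carries that limit. ChIP-seq does not measure how far a knockdown lowered its target.

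Tip60 (Kat5) is a histone acetyltransferase and p400 a Swi/Snf-type ATPase that can exchange histones, and both are subunits of the Tip60-p400 complex. Hdac6 is a class II deacetylase known mainly for cytoplasmic substrates such as tubulin. At a divergent promoter, initiation runs in opposite directions from neighbouring core promoters, the shared stretch between them is usually a CpG island depleted of nucleosomes, and the DNA upstream of either gene is the transcribed DNA of its partner.

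The distance between the TSSs of the 647 gene pairs ran from 6 to 1000 bp, with a median of 223 bp and quartiles of 125 and 379 bp. Of these pairs, 112 lay up to 100 bp apart, 181 over 100 and up to 200 bp, 130 over 200 and up to 300 bp, 122 over 300 and up to 500 bp and 102 over 500 bp. In 41 pairs the files listed a further start without a RefSeq identifier between the genes. A start of the GENCODE annotation of the same build (mm9) fell exactly on 631 of the 1446 rows (43.6%), beside 48.1% of all RefSeq rows.

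The stretches between the starts are shown for 6 of the pairs named in the text, because both genes of each pair share this DNA as their proximal promoter. The first 4 come from a list of well-known divergent pairs, and the others are among the pairs with the most Tip60 signal over untagged, taken from pairs at or below the median untagged signal. Each is the plus strand of mm9 and runs from the minus-strand TSS to the plus-strand TSS with both starts included. Capitals mark matches, on either strand, to 10 motifs that were searched, of which 6 are the TATA box TATAAA, the CCAAT box with just these letters, the Ets motif CCGGAAGT, the Sp1 motif GGGCGG, the Creb motif TGACGTCA and the E-box CACGTG, and 4 longer ones are the Nrf1 motif, the Yy1 motif, the Znf143 motif and a palindrome that opens with TCTCG. The Surf1-Surf2 stretch is chr2:26771851-26771941, the Brca1-Nbr1 stretch is chr11:101413187-101413469, the Col4a1-Col4a2 stretch is chr8:11312730-11313024, the Cox4nb-Cox4i1 stretch is chr8:123192012-123192190, the Snx5-8430406I07Rik stretch is chr2:144096573-144096667 and the Sf3b3-Cog4 stretch is chr8:113370703-113370924.
Surf1-Surf2: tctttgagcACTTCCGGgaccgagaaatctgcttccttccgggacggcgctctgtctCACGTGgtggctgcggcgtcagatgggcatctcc
Brca1-Nbr1: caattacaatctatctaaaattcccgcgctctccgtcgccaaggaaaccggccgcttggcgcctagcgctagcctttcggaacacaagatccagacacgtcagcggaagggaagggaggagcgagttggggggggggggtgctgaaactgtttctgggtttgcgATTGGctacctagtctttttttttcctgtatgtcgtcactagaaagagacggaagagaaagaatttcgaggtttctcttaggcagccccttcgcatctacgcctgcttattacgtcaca
Col4a1-Col4a2: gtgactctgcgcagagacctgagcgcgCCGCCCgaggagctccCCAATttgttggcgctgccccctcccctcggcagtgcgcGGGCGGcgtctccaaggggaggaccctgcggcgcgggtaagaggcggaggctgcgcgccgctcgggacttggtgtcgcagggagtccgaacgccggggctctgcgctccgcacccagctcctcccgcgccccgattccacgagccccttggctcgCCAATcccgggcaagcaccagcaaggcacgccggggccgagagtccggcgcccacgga
Cox4nb-Cox4i1: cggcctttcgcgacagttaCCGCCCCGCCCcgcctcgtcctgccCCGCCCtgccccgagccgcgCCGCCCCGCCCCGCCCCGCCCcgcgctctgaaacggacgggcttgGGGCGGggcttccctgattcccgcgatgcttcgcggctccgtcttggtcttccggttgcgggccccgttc
Snx5-8430406I07Rik: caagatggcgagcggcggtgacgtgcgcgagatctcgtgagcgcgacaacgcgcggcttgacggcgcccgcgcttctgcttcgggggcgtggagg
Sf3b3-Cog4: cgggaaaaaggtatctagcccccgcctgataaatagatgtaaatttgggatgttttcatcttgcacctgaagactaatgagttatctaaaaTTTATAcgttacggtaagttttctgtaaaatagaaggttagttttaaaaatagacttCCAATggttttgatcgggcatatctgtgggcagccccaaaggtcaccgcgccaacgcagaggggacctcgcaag
The Surf1-Surf2 stretch held an Ets match and an E-box in 91 bp, and the Cox4nb-Cox4i1 stretch held a run of overlapping GGGCGG matches. The Brca1-Nbr1 stretch held a CCAAT match and none of the other motifs. The Snx5-8430406I07Rik stretch held none of the 10 motifs, with 18 CpG dinucleotides in 95 bp and 71.6% GC. The Sf3b3-Cog4 stretch held a TATAAA and a CCAAT match and had the lowest GC content of the 6, 42.3%. A match describes the letters only, and no factor binding was measured at it.

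Divergent promoters were CpG-rich. In the 500 bp centred on the TSS the median GC content was 62.0% in the 1446 rows and 57.6% in other RefSeq rows, and the median ratio of observed to expected CpG was 0.815 and 0.55. The ratio was over 0.6 in 1269 rows of the pairs (87.8%), from 0.3 to 0.6 in 130 and under 0.3 in 47, while 46.7% of other RefSeq rows were over 0.6. Because this composition differed so much, the shares and changes of rows below are also given among rows with a ratio over 0.6.

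Between 250 bp upstream and 50 bp downstream of the start, TATAAA was found in 5.256% of the divergent rows and in 12.54% of all RefSeq rows. CCGGAAGT was found in 13.97% of the divergent rows and in 4.898% of all RefSeq rows, and other RefSeq rows with a CpG ratio over 0.6 held it in 8.145%. The palindrome stood at 1.936% of divergent rows beside 0.5858% of all RefSeq rows and 1.038% of the CpG-rich other rows, and the Znf143 motif at 1.176% beside 0.4052% and 0.5444%. GGGCGG was found in 67.77% of divergent rows, above the 45.81% of all RefSeq rows and below the 74.24% of the CpG-rich others. For TATAAA (5.403% in CpG-rich other rows), the Nrf1 motif (2.006% beside 2.177%) and the Yy1 motif (1.867% beside 1.754%) the divergent rows were close to other rows of like composition. TGACGTCA (3.942% beside 3.417%) and CACGTG (9.682% beside 10.93%) also differed little within that class, while CCAAT was higher in divergent rows (40.04% beside 35.39%). CCGGAAGT matches in overlapping promoters of a pair are shared DNA, so the rows are not independent.

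The pairs held genes of housekeeping families. Of all 17689 RefSeq symbols 7.27% lay in a divergent pair. The share was 40% for histone genes (24 of 60), 31.9% for mitochondrial ribosomal proteins (22 of 69), 28.2% for Nduf subunits of respiratory complex I (11 of 39), 25.3% for Dnaj, Hsp and Cct chaperones (19 of 75), 25% for DNA repair genes (11 of 44) and 21.1% for Mcm, Orc, Cdc, Rfc and Pol genes (12 of 57). Cytoplasmic ribosomal proteins (11 of 79, 13.9%) and Psm proteasome subunits (6 of 42, 14.3%) came next. By contrast 1 of 1297 olfactory and vomeronasal receptor genes, 0 of 39 Hox genes, 4.41% of Zfp genes and 4.0% of Slc transporters lay in a pair.

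ChIP signal is given as coverage in ppm of library reads. The promoter signal of a row is the mean from −500 to 500 bp around its TSS. The rows of a pair cover overlapping DNA and share their reads. In 40 row pairs whose bins fell on the same grid the values were equal in all 40, in every sample, so rows of a pair are not replicates. Libraries were normalized by the authors to between 9226710 and 31375600 reads, and the median number of reads behind a promoter value of a divergent row lay between 13 and 32. A read covers about 299 bp in the files of the other ChIPs but about 148 bp in those of Hdac6, so ppm levels of Hdac6 cannot be set against those of the others. The rows of Gm11276 and Gm13646, 4 in all, held no read within 500 bp of their starts in any sample. With single samples no difference between conditions has a replicate check, and no test was made.

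Divergent promoters had more signal than other RefSeq rows in all 7 samples, the untagged sample included. The mean promoter signal was 0.271 ppm for Tip60 upon GFP KD beside 0.184 ppm in other RefSeq rows. For p400 upon GFP KD it was 0.392 beside 0.246 ppm, and for Hdac6 upon GFP KD 0.202 beside 0.149 ppm. No background sample of the p400 antibody was analysed here. The untagged Flag background was itself 0.192 ppm in divergent rows and 0.155 ppm in others. Tip60 signal thus lay 41.1% above the untagged signal in divergent rows and 18.6% above it in other rows.

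The gap was smaller among promoters of like composition. With a CpG ratio over 0.6, mean Hdac6 signal was 0.208 ppm in divergent rows and 0.201 ppm in the others, which is nearly level. Tip60 (0.279 beside 0.221 ppm) and p400 (0.409 beside 0.329 ppm) kept a higher level in divergent rows, as did the untagged background (0.191 beside 0.166 ppm). In the 47 divergent rows with a ratio under 0.3, Tip60 stood at 0.173 ppm and the untagged sample at 0.188 ppm, so that no Tip60 signal above background was visible there.

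Single rows past a 2-fold Tip60 level over untagged numbered 300 of the 1438 divergent rows with at least 10 reads in the samples together. That is 20.9%, against 15.6% of all RefSeq rows tested. Among CpG-rich rows the share was 23.1% in divergent and 20.4% in other rows. Divergent pairs over 1000 and up to 2000 bp apart, which missed the distance rule, gave 13.8% of 225 rows, with a mean Tip60 signal of 0.221 ppm over 231 rows.

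**Figure D1:**
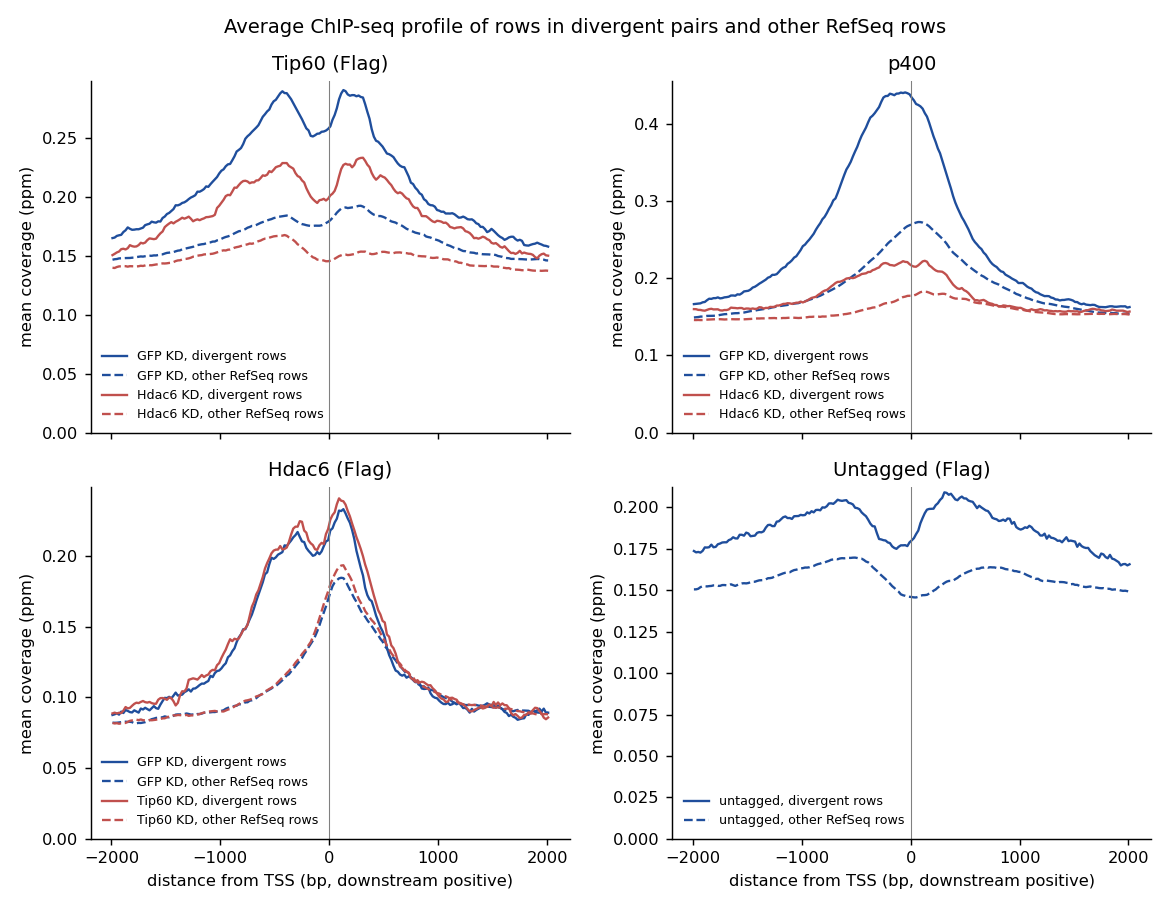
Mean coverage (ppm) from −2000 to 2000 bp around the TSS, downstream to the right, for the 1446 rows of divergent pairs (solid) and the 21258 other RefSeq rows (dashed) in each ChIP and knockdown. In divergent rows p400 forms a broad peak over the start, Hdac6 has a shoulder upstream of the start that other rows lack, and Tip60 and the untagged background dip just upstream of the start.

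Hdac6 signal was more even around the start in divergent rows than in other RefSeq rows. In other RefSeq rows mean Hdac6 signal was 0.172 ppm downstream of the start (−100 to 300 bp) and 0.116 ppm upstream (−600 to −200 bp), 48.8% more downstream. In divergent rows the values were 0.216 and 0.205 ppm, a difference of 5.66%. The upstream window held more Hdac6 signal than the downstream window in 694 of 1446 divergent rows, or 48.0%, beside 31.7% of all RefSeq rows. Among CpG-rich rows the shares were 47.5% and 25.3%.

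The upstream window of a divergent row overlaps the downstream side of its partner, so the windows of the rows of a pair share reads and a signal downstream of both starts is counted in each. Near the median distance of 223 bp, the upstream window of each row is roughly the downstream window of its partner. The rows of such a pair nearly swap windows, so a near-even share there follows from the geometry for any signal. At pairs over 1000 and up to 2000 bp apart, where the partner lies beyond the window, the share was 32.5% (75 of 231 rows), near that of RefSeq rows in general. The same split was seen in the Hdac6 ChIP titled Tip60 KD, with 45.8% of divergent rows beside 31.1% of all RefSeq rows.

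p400 showed a smaller difference of this kind. Its signal upon GFP KD was higher upstream in 45.4% of divergent rows beside 37.8% of all RefSeq rows, and in 44.3% beside 34.5% of the others among CpG-rich rows. The mean was 4.19% higher downstream in divergent rows and 21.2% higher in others. The p400 share was 41.3% for starts up to 300 bp apart and 52.3% for starts further apart. At pairs over 1000 and up to 2000 bp apart it was 44.2% of 231 rows (95% counting interval 37.6 to 50.8). That interval holds both the 45.4% of divergent rows and the 37.8% of all RefSeq rows, so it cannot tell them apart.

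For Tip60 the share was 50.0% beside 48.3% of all RefSeq rows, and 50.2% beside 51.0% among CpG-rich rows, so divergent rows stood near the rest. The untagged sample gave 51.7% beside 54.9%, but 52.8% of divergent rows beside 62.3% of others among CpG-rich rows. Its mean there was −2.3% downstream against upstream in divergent rows and −19.6% in others, so the background too was more even at divergent promoters of like CpG content.

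Within a pair, p400 was on average higher over the shared stretch than beside it. The gap between the starts was compared with the 300 bp downstream of each start in the 627 gene pairs whose gap was at least 40 bp. Upon GFP KD, mean p400 signal was 0.437 ppm in the gap and 0.403 ppm at the sides, 8.35% more in the gap. The gap exceeded both sides in 239 pairs and was below both in 114. It was higher in the gap in each distance class, by 7.09% to 11.3%. A p400 read covers about 299 bp, so gaps up to 300 bp are hardly told from their sides.

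Tip60, Hdac6 and the untagged background showed the opposite order over all pairs. Mean Tip60 signal was 0.254 ppm in the gap and 0.283 ppm at the sides (−10.4%, below both sides in 251 pairs and above both in 139). Mean Hdac6 signal was 0.200 ppm and 0.221 ppm (−9.73%, 235 pairs below and 161 above). The untagged sample had 0.175 ppm and 0.192 ppm (−8.86%, 220 below and 141 above), so a dip of nearly the size seen for Tip60 was present without a tagged protein. Reads cover about 148 bp for Hdac6 and about 299 bp in the untagged sample. Their dips are therefore blurred unequally, and the sizes cannot be set against each other. The Tip60 order did not hold in every distance class, with 4.33% in the gap's favour up to 100 bp, and over 500 bp the gap was above both sides in 31 pairs and below both in 28. In other RefSeq rows the 300 bp upstream differed from the 300 bp downstream by −18.9% for Hdac6 and by −6.54% for Tip60, so a lower Hdac6 signal upstream of the start was larger there than in the gaps of divergent pairs.

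The Hdac6 dip changed with distance. Its gap signal differed from the sides by 2.19% at up to 100 bp, by −3.74% up to 200 bp, by −16.6% up to 300 bp, by −21.8% up to 500 bp and by −6.96% up to 1000 bp. In the untagged sample the same classes gave −9.85%, −8.13%, −11.0%, −14.9% and 0.14%. A gap shorter than a read cannot be told from its sides. This limits the classes up to 300 bp in the Tip60, p400 and untagged samples, and the closest classes for Hdac6, whose reads are shorter.

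**Figure D2:**
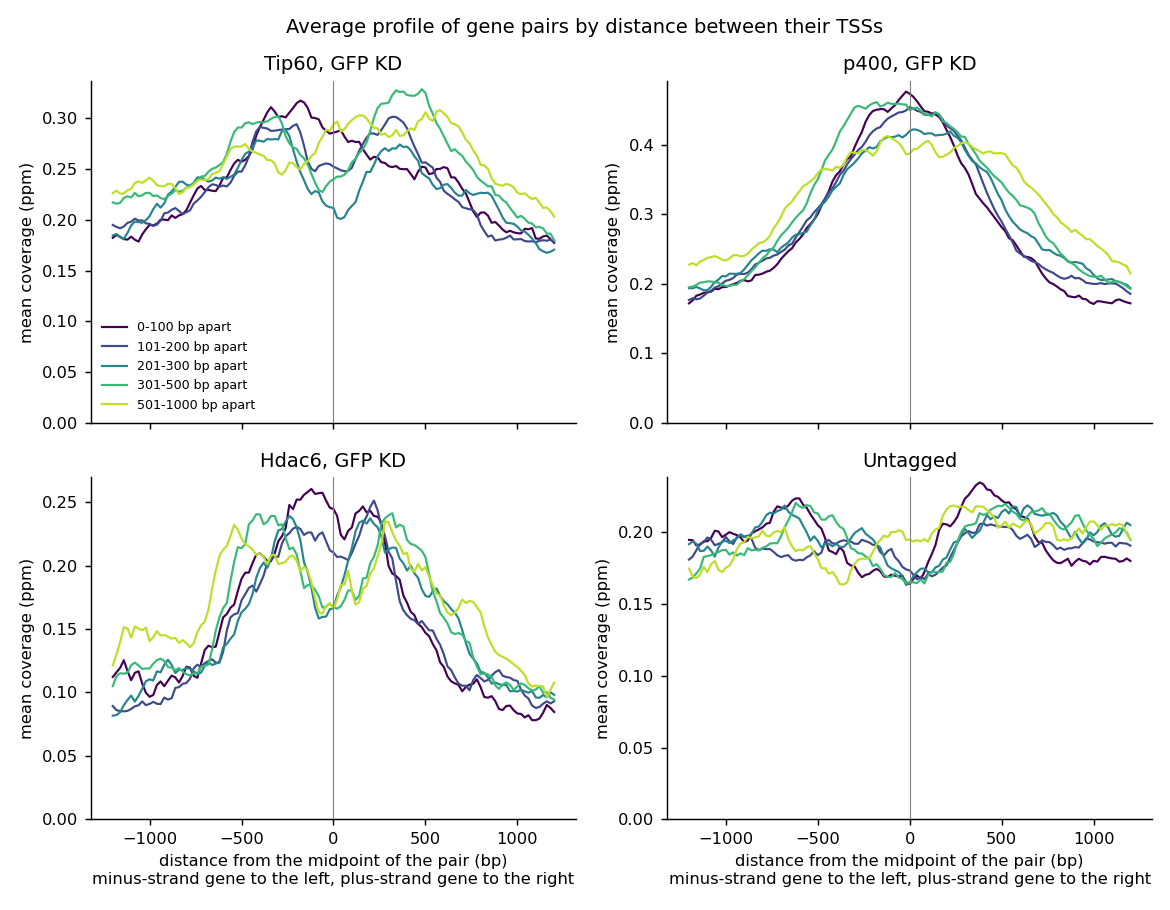
Mean coverage (ppm) against distance from the midpoint between the TSSs, minus-strand gene to the left, for the 647 gene pairs in 5 classes of TSS distance, in the 4 samples named above the panels. p400 peaks over the midpoint in the closer classes, while Hdac6 splits into flanking peaks in the class over 300 and up to 500 bp and the untagged background dips over the midpoint.

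Hdac6 KD was made to ask whether Tip60-p400 binding depends on Hdac6. At divergent promoters p400 signal was lower in the Hdac6 KD sample nearly throughout. The mean went from 0.392 ppm in the control to 0.210 ppm in the knockdown (−46.3%, against −29.8% in other RefSeq rows). The signal was lower in 1361 divergent rows and higher in 81, and lower in 15333 other rows and higher in 5707. Among other rows with a CpG ratio over 0.6 it was lower in 9319 and higher in 573, so falls nearly throughout were not particular to divergent pairs. A fall of at least 1.5-fold was found in 1019 of the 1440 divergent rows with at least 10 reads. That is 70.8%, against 45.0% of all RefSeq rows. A rise of that size was found in 10 divergent rows (0.694%, against 8.30%).

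The p400 change moved with CpG content. Among rows with a CpG ratio over 0.6 a fall was found in 76.2% of divergent rows and 67.0% of other rows, and the means changed by −48.3% and −43.5%. With a ratio from 0.3 to 0.6 the shares were 39.1% and 31.0%. With a ratio under 0.3 it was 10.6% of 47 divergent rows and 14.7% of other rows, and the means changed by −1.55% and 5.03%. The level mean of these divergent rows, 0.205 ppm in the control and 0.201 ppm in the knockdown, covered rows that differed both ways. A rise of at least 1.5-fold was found in 7 of the 47 (14.9%), against 21.6% of other rows in this class. Of the 81 divergent rows with more p400 in the knockdown, 27 were in this class, 23 had a ratio from 0.3 to 0.6 and 31 had a ratio over 0.6.

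The p400 libraries also differed away from promoters. In windows 1500 to 2000 bp from a start knockdown signal divided by control signal rose from 0.628 at 25 to 27.5% GC to 1.11 at 55 to 57.5% GC and was 0.733 at the highest GC. When each row was divided by the ratio of windows of like GC, p400 changed by −42.6% in divergent rows and by −26.3% in others, and falls stood at 64.3%. The equal-totals scaling, which sets the summed signal of the samples level, left falls in 51% of divergent rows and 27.3% of others.

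Tip60 signal was also lower upon Hdac6 KD, 0.271 ppm in the control against 0.217 ppm (−19.8%). The untagged background of these rows was 0.192 ppm and was not subtracted. The percentage therefore includes background and cannot be ranked against that of p400. A fall of at least 1.5-fold was found in 518 of 1430 rows, 36.2%, against 34.9% of all RefSeq rows, so divergent rows stood at the general level. A rise of that size was found in 138 rows (9.65%, against 14.4%). Among CpG-rich rows divergent promoters had falls in 36.3% and the others in 39.7%.

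The lower Tip60 signal was not seen after division by far windows of like GC content, a step chosen after seeing the data. In the windows far from starts the same ratio for Tip60 went from 1.29 at 25 to 27.5% GC to 0.719 at 62.5% GC and over. The class below, 60 to 62.5% GC, gave 0.851. The highest class rests on only 251 far windows, while 448 divergent rows lie in it. Divided by this ratio, mean Tip60 signal changed by 0.23% in divergent rows and by −0.105% in other RefSeq rows. Falls were found in 20.2% of divergent rows and 24.4% of other rows, and rises in 18.9% of divergent rows. Of the divergent rows 237 had a GC content above 65%, beyond which too few windows were left to estimate the ratio. Whether GC content accounts for the lower Tip60 signal was not tested.

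Tip60 KD was made to ask the reverse question. Mean Hdac6 signal of divergent rows was 0.202 ppm in the control and 0.209 ppm in the sample titled Tip60 KD (3.58% higher). Falls of at least 1.5-fold were found in 195 of 1412 rows (13.8%, against 15.7% of all RefSeq rows) and rises in 228 (16.1%, against 17.9%). Among CpG-rich rows falls stood at 13.0% beside 12.8% of others and rises at 16.2% beside 17.7%. At a median of 15 and 13 reads, shares of this size in both directions show no overall direction at this depth.

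**Figure D3:**
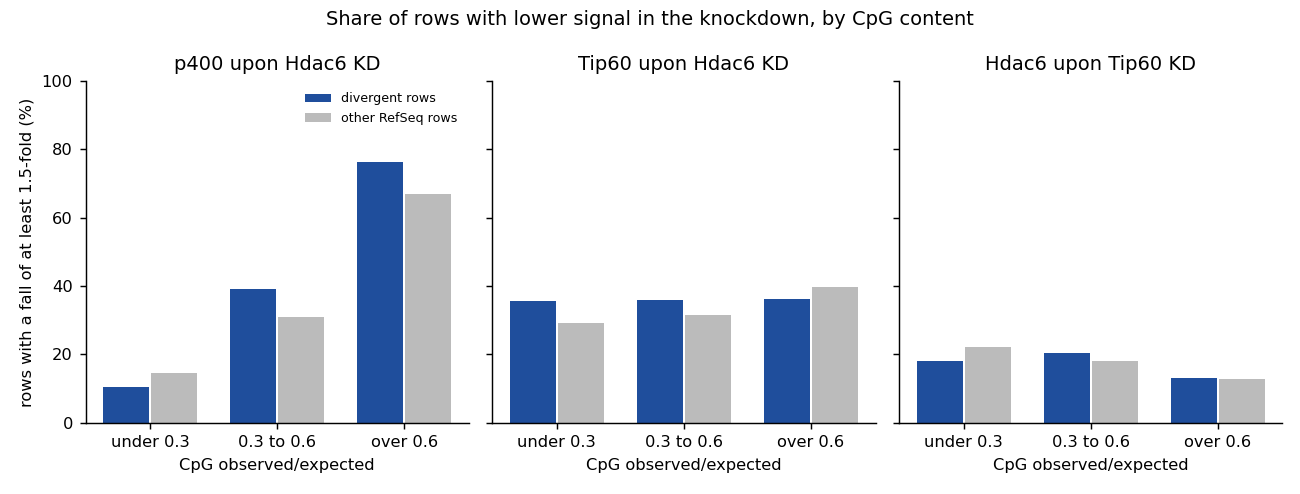
Share of rows (%) whose promoter signal was at least 1.5-fold lower in the knockdown, for divergent rows and other RefSeq rows in 3 classes of CpG observed to expected ratio. The p400 bars climb from 10.6% to 76.2% of divergent rows with CpG content, whereas the Tip60 bars of divergent rows stay near 36%.

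Each gene pair was then given a single value, the mean signal from 300 bp inside the minus-strand gene to 300 bp inside the plus-strand gene. p400 was lower upon Hdac6 KD in 617 of the 647 pairs and higher in 28, with a median change of −47.2%. Other RefSeq rows have no such pair window, so these counts have no general share beside them. The exact 95% interval of the change, which covers read counting only, lay below 0 in 329 pairs and above 0 in 1. Median changes ran from −43.8% to −48.7% over the distance classes, so p400 loss showed no order by distance. For Tip60 the median change was −23.6%, with 75 intervals below 0 and 9 above, and for Hdac6 upon Tip60 KD it was 2.46%, with 7 below and 16 above.

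**Figure D4:**
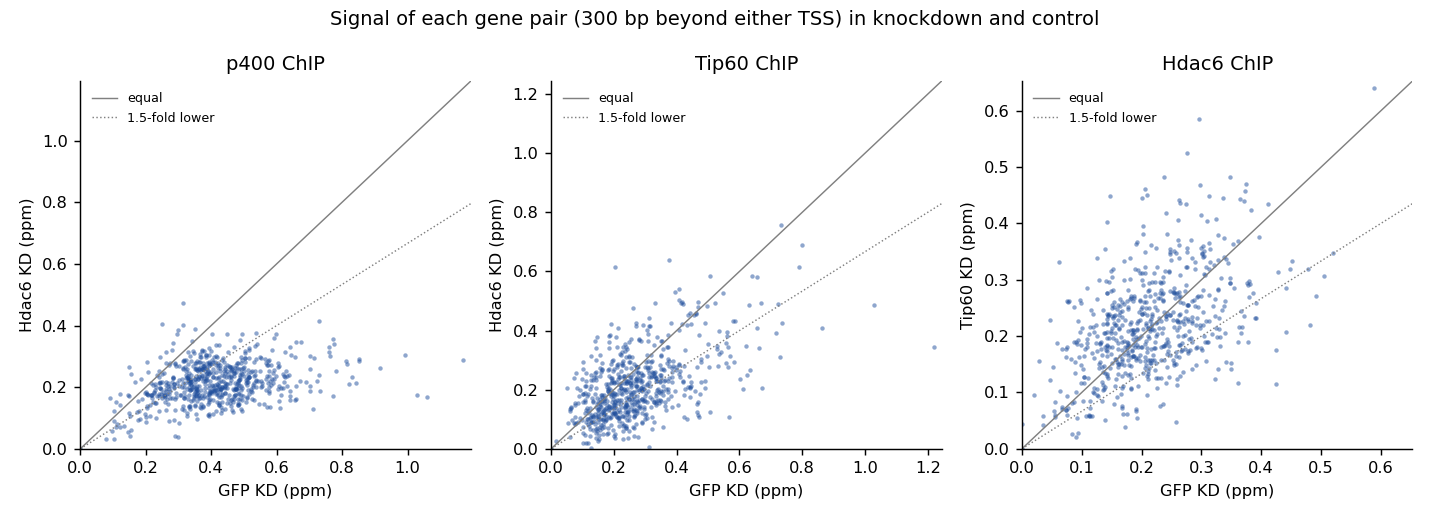
Pair-window signal (ppm) of each of the 647 gene pairs in control (horizontal) and knockdown (vertical), with lines of equality and of a 1.5-fold lower value. The p400 points lie low and nearly flat, up to 1.17 ppm in the control and at most 0.472 ppm upon Hdac6 KD, the Tip60 points spread mostly below the line of equality and the Hdac6 points spread on both sides of it.

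By family, p400 was at least 1.5-fold lower in 460 of the 645 pairs with at least 10 reads (71.3%) and Tip60 in 235 of 629 (37.4%). All 11 pairs with a cytoplasmic ribosomal protein gene passed this fold for p400 and 6 for Tip60, and they had the highest Tip60 level of the families counted, a median of 0.602 ppm upon GFP KD against 0.247 ppm over all pairs. Of 21 pairs with a mitochondrial ribosomal protein gene, 17 passed for p400 and 6 for Tip60. Nduf pairs passed in 9 of 11 for p400 and 2 of 11 for Tip60, and chaperone pairs in 12 and 7 of 17. DNA repair pairs passed in 8 and 5 of 11, replication pairs (Mcm, Orc, Cdc, Rfc, Pol) in 9 and 3 of 12, proteasome pairs in 5 and 3 of 6, Zfp pairs in 8 and 2 of 11 and Slc pairs in 7 and 7 of 13.

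Histone gene pairs were low for all 3 proteins. The 12 pairs made of histone genes on both sides had a median Tip60 signal of 0.136 ppm upon GFP KD, below their untagged median of 0.173 ppm. Their p400 median was 0.235 ppm upon GFP KD, against 0.398 ppm over all pairs, and 0.109 ppm upon Hdac6 KD. Histone gene copies are near-identical, and reads with several matches were placed at random, so values of single copies are uncertain.

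Values of single pairs follow, as pair-window ppm. Of 14 textbook pairs looked for, 5 met the rule. Hspd1-Hspe1 encodes the mitochondrial chaperonin Hsp60 and its cofactor Hsp10, with starts 472 bp apart. Tip60 was 0.563 ppm upon GFP KD and 0.344 upon Hdac6 KD, with 0.182 ppm in the untagged sample. p400 was 0.517 and 0.233 ppm, and Hdac6 was 0.380 ppm in its control and 0.297 ppm upon Tip60 KD. The p400 change was −54.9% (95% interval −73.5 to −26.5), while the Tip60 interval (−63.9 to 4.75) included 0. Tip60 stood further above untagged here than at the other 4 textbook pairs.

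Surf1-Surf2 joins an assembly factor of cytochrome c oxidase to a gene of the surfeit cluster. Tip60 was 0.376 and 0.298 ppm, p400 0.492 and 0.279 ppm, Hdac6 0.274 and 0.290 ppm, and untagged 0.165 ppm, each pair of values in the order control and knockdown. No interval of a change excluded 0.

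Cox4nb-Cox4i1, whose plus-strand gene is a cytochrome c oxidase subunit, was among the 5 pairs with the most Hdac6 over background. Hdac6 was 0.478 ppm in the control and 0.320 ppm upon Tip60 KD. Tip60 (0.165 and 0.100 ppm) stood at the untagged level of 0.153 ppm, and p400 was 0.337 and 0.195 ppm. Hdac6 was high there without Tip60 signal above background.

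The DNA repair gene Brca1, needed for homologous recombination, shares a promoter with the autophagy receptor gene Nbr1. At Brca1-Nbr1, Tip60 was 0.196 and 0.301 ppm, p400 0.330 and 0.275 ppm, Hdac6 0.161 and 0.133 ppm and untagged 0.149 ppm. The p400 change was −16.7% (−55.6 to 46.4), among the smaller of the named pairs.

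Col4a1-Col4a2 encodes the chains of basement membrane collagen IV and is the tissue-specific pair of this list. Tip60 was 0.143 and 0.140 ppm, p400 0.336 and 0.140 ppm, Hdac6 0.159 and 0.248 ppm and untagged 0.0624 ppm. The p400 change was −58.3% (−80.3 to −14.9). The Tip60 change was −1.64% on 9 and 8 reads, with an interval (−66.8 to 189) too wide to tell a fall from no change.

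The pairs with the most Tip60, Hdac6 or p400, and those with the largest changes, were chosen on these values, so they are given as a description. The most signal means the largest excess over untagged among the 324 pairs at or below the median untagged signal of 0.181 ppm. The largest changes were taken among pairs with at least 40 reads in the control sample, which 128 pairs had for p400 and 24 for Tip60. That limit is met through the sample where a pair is high, which favours falls, so their size is no measure of a typical change. Snx5-8430406I07Rik, with the endosomal sorting nexin gene Snx5 on the minus strand, was named by 4 of these choices. Tip60 was 1.03 ppm upon GFP KD and 0.485 upon Hdac6 KD, p400 1.03 and 0.174 ppm, Hdac6 0.362 and 0.368 ppm, and untagged 0.116 ppm. Tip60 and p400 lay over both sides and the gap of this pair, with 1.12 and 1.2 ppm in the gap.

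Several of these pairs had their signal on 1 side. At S100pbp-Yars, whose plus-strand gene is the tyrosyl-tRNA synthetase, Tip60 upon GFP KD was 2.33 ppm on the Yars side and 0.150 ppm on the S100pbp side. Over the pair window Tip60 was 1.22 and 0.346 ppm, p400 1.17 and 0.287 ppm, Hdac6 0.205 and 0.350 ppm and untagged 0.240 ppm. This was the largest Tip60 fall of the 24 pairs with at least 40 control reads (−71.7%, −82.5 to −54.6), and p400 was lower with it (−75.3%, −84.1 to −63.5).

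At Sf3b3-Cog4, Tip60 was 1.5 ppm on the side of Sf3b3, a splicing factor subunit, and 0.419 ppm on the side of the Golgi tethering gene Cog4. Over the pair window Tip60 was 0.863 and 0.409 ppm, p400 0.657 and 0.159 ppm, Hdac6 0.194 and 0.317 ppm and untagged 0.0706 ppm. At Abce1-Anapc10, Tip60 was 1.24 ppm on the side of the ribosome recycling factor Abce1 and 0.197 ppm on the side of Anapc10, an anaphase-promoting complex subunit. Its p400 was 0.536 and 0.376 ppm over the pair window, a change of −29.8% (−59.7 to 21.6).

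Among the 128 pairs with at least 40 p400 reads in the control, Aurka-Cstf1 had the largest p400 fall, without a lower Tip60 value. p400 went from 1.06 ppm to 0.167 ppm, from 69 reads to 14 (−84.2%, −91.5 to −70.7). Tip60 was 0.732 and 0.757 ppm (3.5%, −35.9 to 65.3), Hdac6 0.330 and 0.233 ppm and untagged 0.236 ppm. The p400 signal lay on the side of Cstf1, a pre-mRNA cleavage factor, at 1.9 ppm, with 0.366 ppm on the side of the mitotic kinase gene Aurka.

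With Snx5-8430406I07Rik (−83.2%), the next falls among these 128 pairs were at Alkbh1-1810035L17Rik, Dnajb4-Fubp1 and Catsper2-Pdia3. Alkbh1 is a dioxygenase gene, and p400 there was 0.712 and 0.128 ppm (−82.0%, −92.4 to −63.0), with Tip60 at 0.790 and 0.614 ppm. At Dnajb4-Fubp1, which joins an Hsp40 chaperone gene to a regulator that binds single-stranded DNA, p400 was 0.609 and 0.133 ppm (−78.1%, −88.5 to −58.5). At Catsper2-Pdia3, a sperm calcium channel gene beside a protein disulfide isomerase gene, p400 was 0.771 and 0.172 ppm (−77.7%, −88.7 to −57.1). Tip60 intervals included 0 at all 3 pairs.

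Among the 24 pairs with at least 40 control reads for Tip60, large Tip60 falls were also found at Ncapd2-Mrpl51, Fam162a-Ccdc58 and Hnrpdl-Enoph1, and in each p400 was lower too. Ncapd2 encodes a condensin subunit, and Tip60 there was 0.624 and 0.248 ppm (−60.2%, −78.1 to −32.8) with p400 at 0.703 and 0.186 ppm. At Fam162a-Ccdc58 Tip60 was 0.728 and 0.309 ppm (−57.5%, −78.6 to −22.7) with p400 at 0.608 and 0.205 ppm. At Hnrpdl-Enoph1, an RNA-binding protein gene beside an enzyme gene of methionine salvage, Tip60 was 0.444 and 0.205 ppm (−53.8%, −75.2 to −19.5) with p400 at 0.485 and 0.144 ppm.

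The pairs with the most p400 over untagged had, besides Snx5-8430406I07Rik, genes of varied roles. At Ewsr1-Rhbdd3, p400 was 0.916 and 0.261 ppm, with 1.39 ppm upon GFP KD on the side of the RNA-binding gene Ewsr1. At Psph-Cct6a, a serine synthesis enzyme gene and a subunit of the cytosolic chaperonin, p400 was 0.822 and 0.211 ppm. At Bop1-Hsf1, a ribosome assembly gene beside the master regulator of the heat shock response, p400 was 0.813 and 0.284 ppm. Ears2-Ubfd1, with the mitochondrial glutamyl-tRNA synthetase gene, had p400 at 0.830 and 0.233 ppm and was also among the highest for Tip60 (0.671 and 0.205 ppm, untagged 0.144 ppm).

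The 5 pairs with the most Hdac6 over background were not among the 5 with the most Tip60 or p400. Lists this short out of 324 pairs would seldom overlap even for unrelated rankings, so nothing follows from this. Dap3-Ash1l joins a mitochondrial ribosomal protein gene to a histone H3 methyltransferase gene, and Hdac6 there was 0.492 and 0.271 ppm, with 0.906 ppm in its 82 bp gap. Tip60 at this pair was 0.154 ppm upon GFP KD, near the untagged 0.127 ppm. Its p400 went from 0.288 to 0.0403 ppm, 17 reads to 3, a change of −86% (−97.3 to −50.8), larger than at Aurka-Cstf1 but on fewer reads than the limit of 40. Hdac6 was 0.505 and 0.306 ppm at Stra13-Lrrc45, 0.448 and 0.320 ppm at Klhdc3-Mea1 and 0.428 and 0.313 ppm at Galns-Trappc2l, a lysosomal sulfatase gene beside a trafficking complex gene. Hdac6 was lower in the sample titled Tip60 KD at all 5 pairs chosen for high control values, and each interval of the change included 0.

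**Figure D5:**
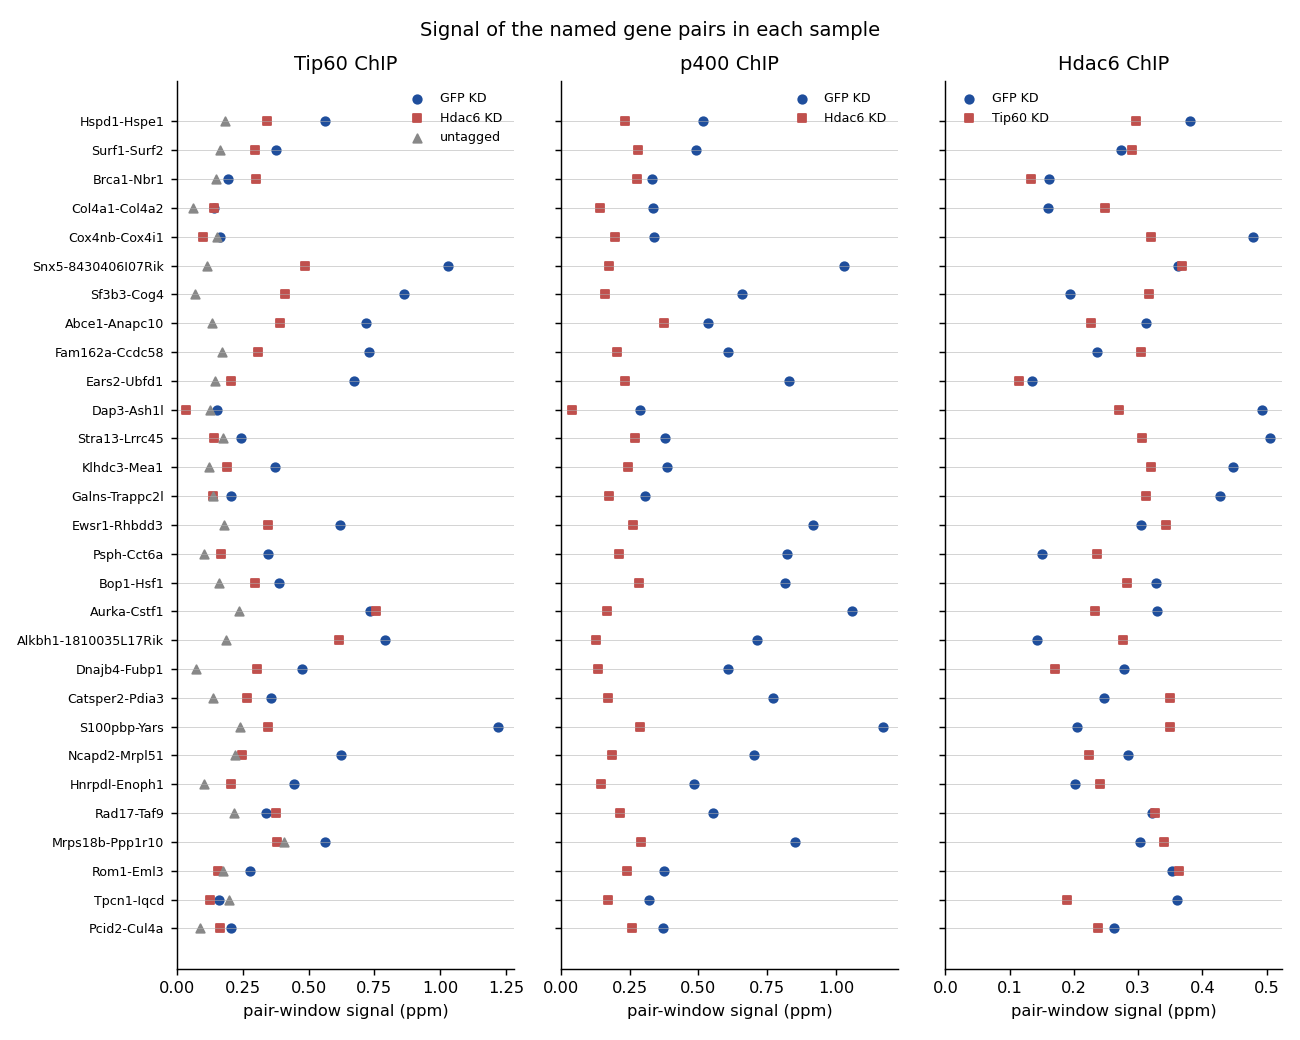
Pair-window signal (ppm) of the 29 named gene pairs in each ChIP, control in blue and knockdown in red, with the untagged sample in grey beside Tip60. p400 upon Hdac6 KD lies below p400 upon GFP KD at all 29 pairs, while Hdac6 values upon Tip60 KD fall on either side of the control. Some of these pairs were chosen for high control p400 or a large p400 fall, and p400 was lower in 617 of all 647 pairs.

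The sides of a pair could be compared for Hdac6 at 5 pairs only, those at least 300 bp apart with at least 30 Hdac6 reads in the 500 bp downstream of the starts. At Rad17-Taf9, Hdac6 upon GFP KD had 29 reads on the side of the checkpoint gene Rad17 and 6 on the side of the TFIID subunit gene Taf9, and upon Tip60 KD 27 and 4. The untagged sample had 17 and 3 reads there, so the background leaned the same way. At Mrps18b-Ppp1r10 the order was 10 reads on the Mrps18b side and 25 on the side of Ppp1r10, a regulatory subunit of protein phosphatase 1, with 12 and 20 untagged reads. In the sample titled Tip60 KD the Mrps18b-Ppp1r10 sides had 5 and 17 reads. Rom1-Eml3 had 21 and 9 reads in the control and 18 and 8 in that sample, in the same order. At Tpcn1-Iqcd (12 and 20, then 6 and 2) and at Pcid2-Cul4a (17 and 13, then 8 and 11) the order turned, so it did not hold between the Hdac6 libraries.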

How the data were processed

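ChIP-seq of 7 samples of mouse ESCs was analysed, 1 per condition, grouped by the sample titles. The authors sequenced single-end reads (CASAVA 1.8.2 and Bowtie in the submitters' processing notes), mapped them to mm9 with at most 1 mismatch, placed multiple matches at random, kept read occurrences and extended reads, to 150 bp by the methods. The deposited values are coverage signal (ppm) in 20 bp bins from −2000 to 2000 bp around each TSS. How values were normalized, and which TSS list was used, is not given in the sources used here. Values are whole multiples of a step (100% within 0.01 steps), which gives the reads of each library, and isolated reads span about 299 bp or, in the Hdac6 files, 148 bp. p400 rows were joined to Flag rows by identifier and order.

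From these, windows, shares and exact 95% intervals of read ratios were computed with Python 3.11.15, numpy 2.4.6, pandas 2.3.3 and scipy 1.17.1, and drawn with matplotlib 3.10.9. The intervals cover counting error only, and repeated reads are not independent molecules. Sequences, CpG ratios and motifs came from the mm9 genome. Named pairs were 14 textbook pairs where found (a further one is not reported here), the 5 highest pairs per protein over untagged (among pairs with untagged signal at or below the median), the 5 largest p400 and Tip60 falls (at least 40 reads) and the 5 most unequal Hdac6 sides. Lists and members were chosen with earlier results of these data known. The script was tested on simulated data.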

Additional observations from a re-analysis of the deposited data

How the results depend on the processing

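The member count was 1446 and became 1195 with a distance limit of 500 bp. Hdac6 signal was higher upstream in 48% of divergent rows, in 53% with windows of −500 to −100 and 100 to 500 bp (36.8% of other RefSeq rows) and in 60.3% with 1000 bp on either side (36.4%). With a promoter window of −250 to 250 bp, the shares were 27% for Tip60 at 2-fold over untagged, 39% for Tip60 falls and 19.9% for Hdac6 falls. With −1000 to 1000 bp they were 10.5%, 27.6% and 7.91%, and 61.7% for p400 falls. With equal totals they were 18.3% for Tip60 over untagged, 28% for Tip60 falls and 51% for p400 falls (27.3% in other rows). A fold of 1.5 gave 40.1% for Tip60 over untagged, and a fold of 2 gave 16.7% for Tip60 falls, 40.7% for p400 falls and 3.47% for Hdac6 falls. Tip60 falls stood at 39.9% for starts over 300 bp apart. Dividing by the ratio of far windows of like GC content, chosen after seeing the data, gave 20.2% for Tip60 falls (24.4% of other rows) and 64.3% for p400 falls (37.8%). The cause of these shifts was not tested. The p400 share stayed above that of other rows under each of these settings, whereas the Tip60 fall share was below it with equal totals, with a fold of 2 and after the GC division. All other alternatives, among them a minimum of 20 reads, no minimum, 1 row pair per gene pair and leaving out the 1% of rows highest in the untagged sample, moved a share by less than its counting interval. No paired analysis was possible because each condition had a single sample. Depth limits single rows to a median of 13 to 32 reads.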
